A study of Drosophila melanogaster with 12 samples.

Results

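RNA of whole guts was compared between adult Drosophila melanogaster females carrying UAS-Hey RNAi in their enterocytes (Hey RNAi guts, 3 arrays) and females carrying UAS-GFP in the same cells (control guts, 3 arrays). These 6 gut arrays were chosen by their labels out of 12 in the study. The other 6 hold purified progenitors, which the study describes as enriched and predominantly enteroblasts (EBs), and which are called EBs here. In them both transgenes were driven by Hey-Gal4. Per the study's methods, EB females were kept longer at 18 °C, for a varying number of days, ahead of the same shift. In both gut groups MyoIA-Gal4 drove the transgene in enterocytes (ECs), and per the study's methods a temperature-sensitive Gal80 kept the driver silent until the shift. Flies of both groups grew at 18 °C and moved to 29 °C as adults aged 2 to 4 days, where they stayed for 2 days. The study describes its triplicates as separate crosses. The transgene was driven in ECs, but the RNA came from the whole organ, which also holds stem cells, EBs, enteroendocrine cells, muscle and trachea.

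Hey is a basic helix-loop-helix protein of the HES family. Members of this family bind DNA and are best known as repressors acting downstream of Notch. ECs are the large polyploid cells of the midgut epithelium, which secrete digestive enzymes and absorb nutrients. They arise from EBs, the daughters of intestinal stem cells. The comparison asks which transcripts of the gut depend on Hey in ECs.

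Each array measured 15473 transcripts, each with 4 probes of 60 nucleotides, and gave 1 intensity per transcript. The median deposited intensity was 878, 589 and 838 units in the Hey RNAi guts and 854, 555 and 808 units in the control guts. All values below are log2 intensities after quantile normalization over these 6 arrays, and changes are Hey RNAi minus control. Intensities of different transcripts come from different probes, so their order by level is only approximate. The files name transcripts by FlyBase identifier alone, and 44 of the 15473 could be paired with a gene. None of the 160 genes on lists of EC, progenitor, enteroendocrine, muscle, trachea, blood cell and pathway genes was among them. The level of Hey itself and the markers of each cell type were therefore not analysed here, and the labels of the arrays could not be checked against them. In whole guts, fewer cells of a type and less RNA per cell cannot be told apart.

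The 6 arrays parted by group along the main axis of a principal component analysis (60.1% of the variance). The Hey RNAi guts scored -37.2, -41.5 and -40.9, and the control guts 46.0, 45.2 and 28.4. Control gut 3 stood apart from the other 2 control guts on the side of the Hey RNAi guts. It correlated with the Hey RNAi guts at r of 0.972 to 0.975 across transcripts, whereas control guts 1 and 2 did so at 0.964 to 0.968. Within groups, r was 0.989 to 0.991 among Hey RNAi guts and 0.985 to 0.987 among control guts. The median SD over transcripts was 0.161 log2 units in Hey RNAi guts and 0.194 in control guts (n = 3 each), and 0.143 between control guts 1 and 2 alone. At the same spread, a median SD of 2 arrays runs lower than one of 3, so 0.143 cannot be set directly against the other values. For some of the results that control gut 3 moved, the value without it is given too.

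**Figure D1:**
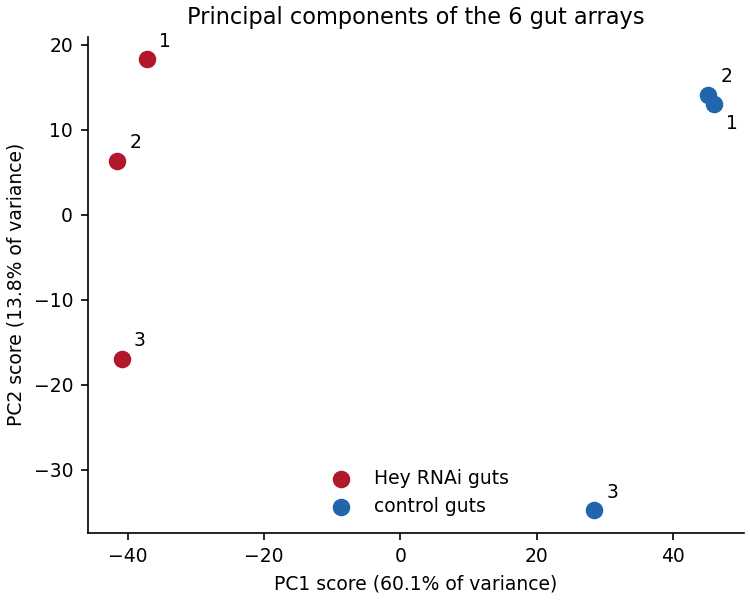
Scores of the 6 gut arrays on the first (x axis, 60.1% of the variance) and the second principal component (y axis, 13.8%), in log2 units, with the replicate number beside each point. The 3 Hey RNAi guts lie between -41.5 and -37.2 on the x axis, and control gut 3, at 28.4, lies nearer to them than control guts 1 and 2 do.

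Hey RNAi guts differed from control guts in 1091 of the 15473 transcripts (7.05%), at an adjusted p under 0.05 and a change of at least 2-fold. Of these, 547 were higher in Hey RNAi guts (3.54% of all transcripts) and 544 were lower (3.52%). The even split depended on the scaling, the filter and the threshold. Calls were 42.8% higher without the dimmest 1 in 3 transcripts, 44.3% at an adjusted p under 0.01 and 39.6% by limma's treat for changes over 1.5-fold. A fit of all 12 arrays moved the share the other way, to 54.0%. Centring each array on its median in place of quantile normalization gave 38.1% of the calls as higher, against 50.1% here, with the median change of all transcripts at -0.07 against 0.03. At any fold, 3058 transcripts had an adjusted p under 0.05 (19.8%), 1574 of them higher (10.2%) and 1484 lower (9.59%). Smaller changes thus made up most of this set, as 1967 transcripts passed the p but stayed under 2-fold. Conversely, 273 of the 1364 transcripts with a change of 2-fold or more did not pass the p.

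The groups of 3 arrays did not overlap in 6583 transcripts (42.5%), with Hey RNAi guts above in 3510 (22.7%) and below in 3073 (19.9%). All 1091 called transcripts were among these 6583. In 444 of them even the pair of arrays closest to each other across the groups lay 2-fold apart or more, 179 with Hey RNAi guts above and 265 with Hey RNAi guts below. Leaving out 1 array at a time gave 883 to 937 calls, except for control gut 3. Without control gut 3 there were 1313 calls, 678 higher and 635 lower, and 989 of the 1091 calls were among them. In all, 650 of the 1091 (59.6%) were called whichever array was left out, 292 higher and 358 lower. Among the called transcripts, control gut 3 was the control array nearest to the Hey RNAi guts in 318 of 547 higher (58.1%) and in 313 of 544 lower (57.5%). For control guts 1 and 2 these shares were 20.5 to 21.7%.

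The changes that were large were more often losses. The median change was 1.35 log2 units for the transcripts called higher and -1.46 for those called lower, against 0.03 over all transcripts. Changes of 2- to 4-fold were called in 462 higher and 400 lower transcripts, and changes of 4- to 8-fold in 68 higher and 94 lower. At 8-fold or more there were 17 higher and 50 lower. The most extreme called values were 4.87 and -6.06 log2 units. The median standard error was 0.21 log2 units among the calls and 0.16 over all transcripts.

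The transcripts that fell tended to be bright in control guts, and those that rose tended to be dim there. Transcripts called lower had a median level of 9.46 in Hey RNAi guts and 11.51 in control guts, and transcripts called higher 8.94 and 7.49. The median transcript on any array was at 9.53. Among the transcripts that fell, 250 were above this median on all 6 arrays, 110 below it on all 6, and 91 were below it in 3 of 3 Hey RNAi guts and above it in 3 of 3 control guts. Among those that rose, 110 were above it on all 6 arrays, 308 below it on all 6, and 65 were above it in 3 of 3 Hey RNAi guts and below it in 3 of 3 control guts. The most frequent kind of fall was thus a partial loss of a signal that remained above the median, while 308 of the 547 rises took place below it. As a share of the summed deposited intensity of an array, the transcripts called lower held 2.14, 1.87 and 2.14% in Hey RNAi guts and 6.64, 6.66 and 5.80% in control guts. Those called higher held 2.56, 2.59 and 2.77% in Hey RNAi guts and 0.994, 0.866 and 1.10% in control guts. These shares describe transcripts selected for their change, and probe intensities are not amounts of RNA.

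**Figure D2:**
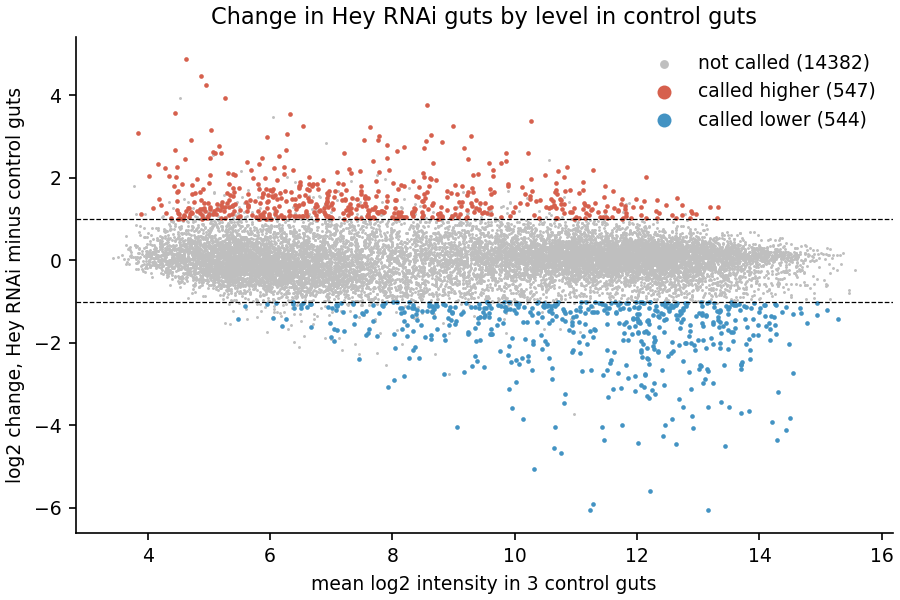
Each point is 1 of 15473 transcripts, by its mean log2 intensity in the 3 control guts (x axis) and its log2 change, Hey RNAi minus control (y axis), with dashed lines at 2-fold. The 547 transcripts called higher lie mostly at dim and middle levels, and the 544 called lower reach into the brightest levels.

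When transcripts were sorted by their level in control guts into 5 equal quintiles of 3094 or 3095, the calls changed direction along the scale. From the dimmest to the brightest quintile, 144, 177, 136, 72 and 18 transcripts were called higher, which is 4.65, 5.72, 4.40, 2.33 and 0.582% of each quintile. Those called lower numbered 3, 49, 155, 132 and 205, or 0.0970, 1.58, 5.01, 4.26 and 6.62%. The brightest quintile thus held 205 falls against 18 rises and the dimmest 3 against 144. The dimmest quintile spans mean control levels of 3.43 to 5.97 and the brightest 12.15 to 15.57. Near the bottom of the scale there is little room for a 2-fold fall, and near the top little for a 2-fold rise. How far this limit set the direction of the calls was not tested. The median change was 0.05 in the dimmest quintile, -0.10 in the second and 0.03 in the brightest. Quantile normalization gives all arrays the same distribution, which limits how far such medians can move. After median centring they were -0.16, -0.32 and -0.03, and on the deposited values -0.10, -0.26 and 0.03. Whether the typical dim transcript shifted therefore depends on the scaling. The median standard error was 0.20 log2 units in the dimmest quintile and 0.13 in the brightest.

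The control arrays set both the level and the change in this sorting, so errors in them act on both. The sorting was therefore repeated with the mean of all 6 arrays as the level, and with control gut 1 as the level and the change taken from the other 5 arrays. By the mean of 6 arrays, 75, 185, 169, 77 and 41 were called higher from dim to bright and 13, 82, 187, 158 and 104 lower. The direction at both ends was the same, but the excess of falls in the brightest quintile was 104 against 41. By control gut 1 the counts were 99, 113, 107, 56 and 25 higher and 11, 40, 136, 104 and 192 lower. With this level, which no change shared, the brightest quintile held 6.20% called lower and 0.808% called higher. Of the 500 brightest in control guts 40 were called lower and 0 higher, but the median change was 0.04 and 223 were below zero. Of the 100 brightest by control gut 1 alone 9 were called lower and 0 higher, with a median of -0.09 and 57 below zero. Mean levels in control guts reached 15.57 at most, so the brightest of these transcripts had little room for a 2-fold rise. Others had more, as a level of 14.29 was at percentile 98.5. How far the limit at the top set the counts of 0 was not tested, and re-sorting does not alter such limits at either end.

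**Figure D3:**
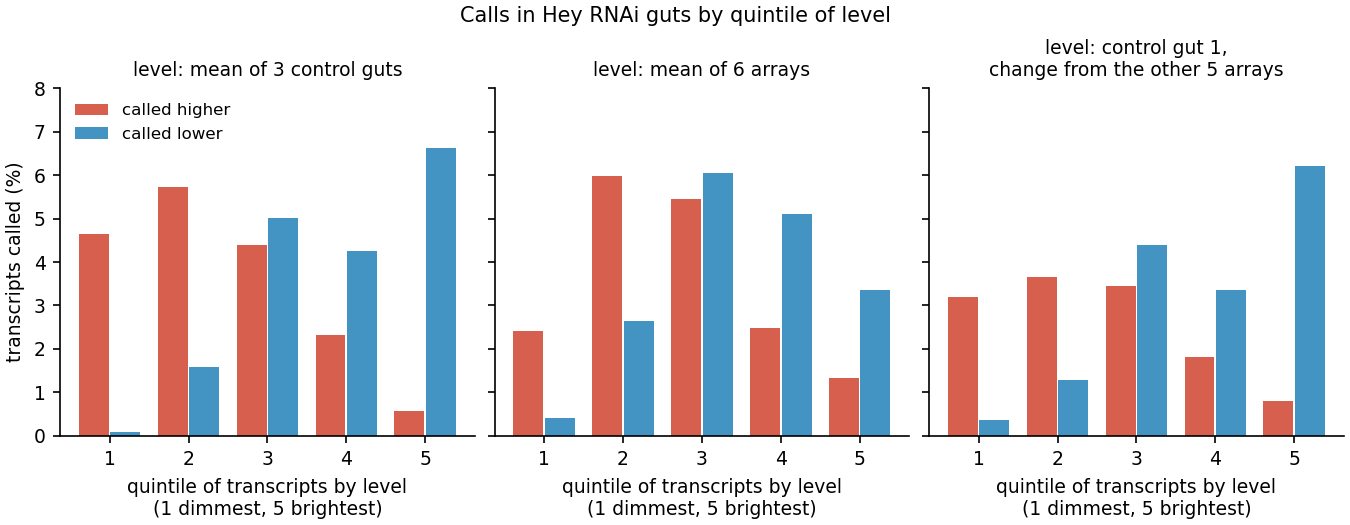
Share of transcripts called higher and called lower in Hey RNAi guts (y axis, percent) in each quintile of transcripts by level (x axis), with the level set in 3 ways. With the mean of 3 control guts, calls in the brightest quintile are 6.62% lower and 0.582% higher, and with control gut 1 and the other 5 arrays 6.20% and 0.808%.

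Of the 44 transcripts with a gene, 17 are paired with a single gene and 27 with several. The single genes are a small sample of the array fixed by how the annotation table lists identifiers, and they stand for no pathway. Of these 17, 1 was called (sle), against 7.05% of all transcripts. At an adjusted p under 0.05 and any fold, 3 rose and 1 fell (23.5%, against 19.8% of all transcripts). The other 13 did not pass, with changes from -0.47 to 0.41.

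The called one, sle, encodes a nucleolar protein. It was at 11.75, 11.63 and 11.71 in Hey RNAi guts and at 10.58, 10.65 and 10.79 in control guts. Every Hey RNAi gut was above every control gut, with SDs of 0.065 and 0.11 within the groups. The change was 1.02 ± 0.11 log2 units (SE), or 2.03-fold, with an adjusted p of 0.00261. It sat just past the 2-fold limit. Without Hey RNAi gut 1 the change was 0.998 and without control gut 1 it was 0.97, both under 2-fold at adjusted p of 0.0163 and 0.0140. Cyclic loess in place of quantile normalization also gave a change under 2-fold, 0.96.

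Other genes of the nucleus moved less. SuUR, a chromatin protein that slows replication of heterochromatin in polyploid cells such as those of the gut, was at 12.37, 12.53 and 12.31 in Hey RNAi guts and at 11.80, 11.80 and 12.09 in control guts. The groups did not overlap, and control gut 3 was the closest control. SuUR rose by 0.51 ± 0.13 (SE) at an adjusted p of 0.0420. This p was over 0.05 when any array but control gut 3 was left out, at 0.0811 to 0.124, and also after median centring (0.0859) and cyclic loess (0.0579). With the replicate number as a block in the fit it was 0.0775. Without control gut 3 the change was 0.60 (adjusted p = 0.0281). The histone deacetylase gene HDAC3 changed by 0.13 (adjusted p = 0.410), the chromodomain helicase gene kis by 0.08 (0.683) and the histone H4 gene His4r by -0.08 (0.735), and none of them passed.

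Of 2 genes of the ubiquitin system, 1 rose. Uba1 encodes the E1 enzyme that activates ubiquitin for all later steps. It was at 13.80, 14.03 and 13.97 in Hey RNAi guts and at 13.01, 13.02 and 13.16 in control guts, so the groups lay clearly apart. The rise was 0.87 ± 0.12 (SE), or 1.82-fold, with an adjusted p of 0.00513. The substrate adaptor of a cullin ligase, rdx, was at 13.85, 13.45 and 13.94 in Hey RNAi guts and at 13.06, 13.78 and 14.03 in control guts. Its groups overlapped, with a change of 0.12 (adjusted p = 0.775).

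Fatp1, a transporter and activator of long-chain fatty acids, was the single-gene transcript that fell. It was at 12.75, 12.40 and 12.60 in Hey RNAi guts and at 13.39, 13.39 and 13.06 in control guts. Every Hey RNAi gut was below every control gut, and control gut 3 was again the closest. The fall was -0.70 ± 0.15 (SE), or 1.63-fold, at an adjusted p of 0.0230. The p was 0.0640 to 0.0728 when Hey RNAi gut 2, Hey RNAi gut 3, control gut 1 or control gut 2 was left out, and 0.0183 without control gut 3, with a change of -0.82. The phosphate transporter gene NaPi-III changed by -0.25 (adjusted p = 0.295). On the deposited values with no further scaling, the 4 changes were 1.07 for sle, 0.86 for Uba1, -0.71 for Fatp1 and 0.54 for SuUR, and none passed without a block (adjusted p of 0.0711, 0.148, 0.285 and 0.456 in this order). In the fit of all 12 arrays sle passed at 0.0252, whereas Uba1, Fatp1 and SuUR had 0.0632, 0.164 and 0.326.

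The remaining 8 did not pass. mio and Wdr24, subunits of the GATOR2 complex that acts upstream of TORC1, changed by -0.29 (adjusted p = 0.0983) and -0.21 (0.235). The laminin chain gene LanA changed by -0.32 (0.339), the membrane skeleton gene alpha-Spec by 0.05 (0.826) and the kinase gene Dyrk3 by 0.41 (0.171). CG31178 changed by -0.47 (0.0847), CG16974 by -0.07 (0.681) and fend by 0.09 (0.871). The value of fend was 6.56 in control gut 3 but 5.46 and 5.13 in the other 2 control guts, so its standard error was the widest of the 17, at 0.35. Without control gut 3 its change was 0.51 (adjusted p = 0.0696).

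**Figure D4:**
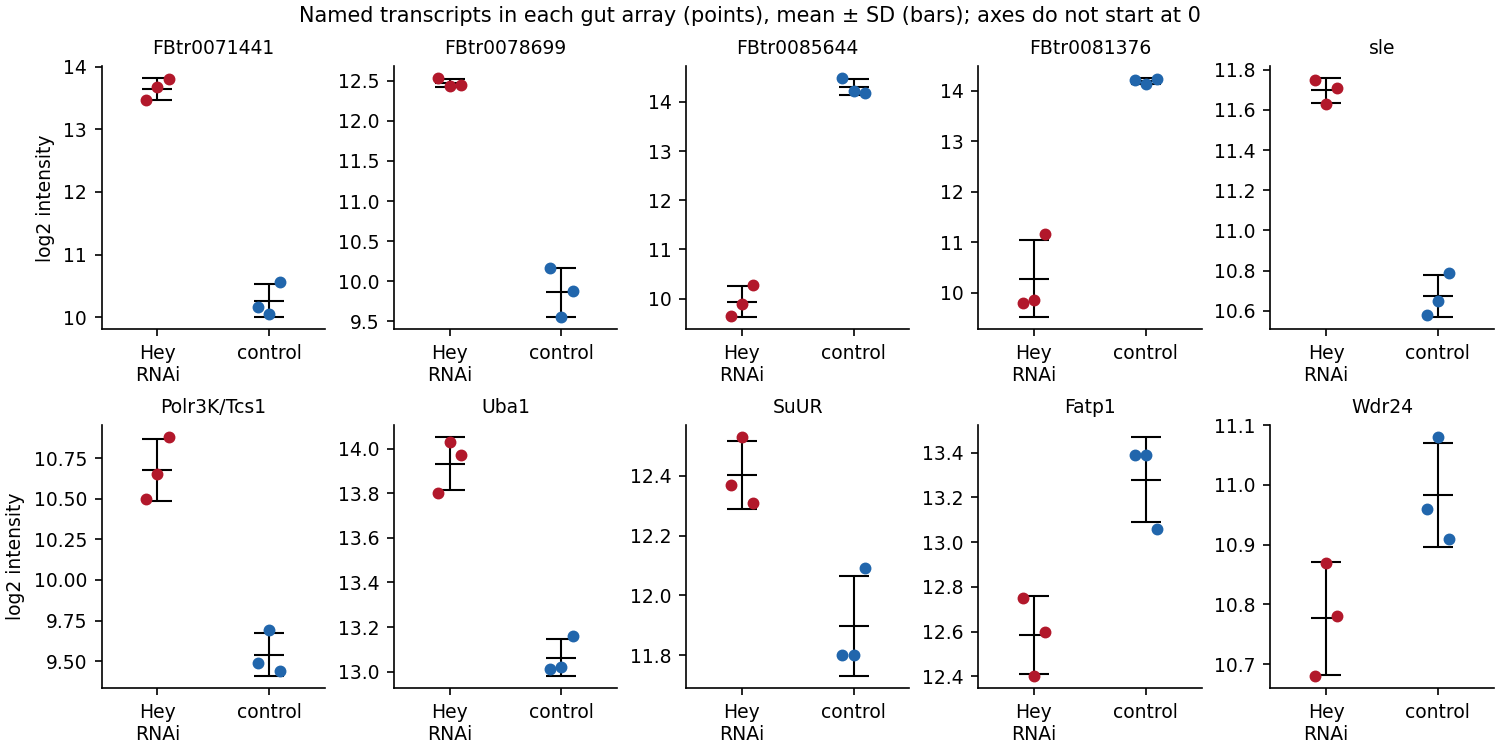
Log2 intensity (y axis, not starting at 0) of 10 transcripts in each Hey RNAi gut (left) and each control gut (right), with bars for the mean ± SD (n = 3). No panel has overlapping groups, which also holds for 42.5% of all transcripts, and Wdr24 did not pass (adjusted p = 0.235). The gap between the group means runs between -4.35 for FBtr0085644 and 3.38 for FBtr0071441, and the FBtr transcripts were picked for the size of their change.

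The 27 other transcripts are listed under several genes, as single RNAs with more than 1 reading frame, and their probes cannot assign a change to either gene. Of these, 7 had an adjusted p under 0.05 (25.9%, against 19.8% of all transcripts), all 7 of them higher, and 20 did not pass, with changes from -0.64 to 0.32. The change was above zero in 22 of 27, with a median of 0.22. Over all 15473 transcripts 52.2% were above zero with a median of 0.03, and over those brighter than the median transcript 57.3% with a median of 0.07. The 27 were mostly bright, at a median percentile of 76.0 by level in control guts.

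The only one called was the transcript of Polr3K, a subunit of RNA polymerase III, and Tcs1. It was at 10.50, 10.65 and 10.88 in Hey RNAi guts and at 9.49, 9.69 and 9.44 in control guts. The lowest Hey RNAi gut was well above the highest control gut. The rise was 1.14 ± 0.14 log2 units (SE), or 2.20-fold, at an adjusted p of 0.00416, and it was called whichever array was left out. A second rise was that of the transcript of CG42496 and Ppcdc (a coenzyme A synthesis enzyme), which was at 13.74, 13.51 and 13.66 in Hey RNAi guts and at 12.73, 12.83 and 12.91 in control guts. The groups did not overlap. This transcript rose by 0.81 ± 0.12 (SE) at an adjusted p of 0.00683. On the deposited values with no further scaling the adjusted p was 0.193 without a block and 0.0211 with the replicate number as a block.

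The other 5 rises were smaller and nearer the threshold. The transcript of CG42306 and Gint3 rose by 0.62 (adjusted p = 0.0214), and that of Sws1 and Rad1, a part of the checkpoint clamp that senses damaged DNA, by 0.60 (0.0490). The transcript of CG42488 and CG5116 rose by 0.50 (0.0278), that of CG33995, CG44000 and CG44001 by 0.45 (0.0426) and that of CG31917 and Tfb5, a subunit of the repair and transcription factor TFIIH, by 0.44 (0.0388). With 1 array left out, the transcript of CG31917 and Tfb5 was over 0.05 whichever array it was (0.0633 to 0.109), and each of the other 4 was over 0.05 in 5 of 6 cases, up to 0.136 for Sws1 and Rad1 without Hey RNAi gut 1. The case that passed was the one without control gut 3 for 3 of these 4, and the one without control gut 1 for CG42488 and CG5116 (0.0371). None of the 5 passed on unscaled values without a block (0.385 to 0.575) or in the fit of all 12 arrays (0.0890 to 0.356). With the replicate number as a block, unscaled values gave 0.0284 for CG42306 and Gint3, 0.0396 for CG42488 and CG5116 and 0.0473 for Sws1 and Rad1. In that fit CG31917 and Tfb5 (0.0536) and CG33995, CG44000 and CG44001 (0.0683) stayed over 0.05. The largest values in the other direction, -0.64 for CG32573 and CG42512 and -0.61 for CG45088 and CG6191, did not pass (adjusted p = 0.0980 and 0.0656).

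Among the 15429 transcripts without a gene, 4 are given here as examples of large changes in bright signals, the 2 largest called rises and the 2 largest called falls above the median transcript on all 6 arrays. Their selection used these same changes, so the values describe them. FBtr0071441 was at 13.46, 13.67 and 13.80 in Hey RNAi guts and at 10.17, 10.06 and 10.57 in control guts. FBtr0078699 was at 12.53, 12.43 and 12.45 in Hey RNAi guts and at 10.16, 9.55 and 9.88 in control guts. Both were near the middle of the scale in control guts and among bright transcripts in Hey RNAi guts, with gains of 3.38 ± 0.17 (SE, 10.4-fold) and 2.61 ± 0.17 (6.10-fold). FBtr0085644 was at 9.64, 9.90 and 10.28 in Hey RNAi guts and at 14.48, 14.22 and 14.18 in control guts. FBtr0081376 was at 9.81, 9.87 and 11.17 in Hey RNAi guts and at 14.22, 14.14 and 14.24 in control guts. These 2 had been among the brightest 2% of transcripts in control guts and were near the array median in Hey RNAi guts, at changes of -4.35 ± 0.19 (SE) and -3.92 ± 0.36 (SE). Hey RNAi gut 3 was the highest of its group in both falls, by more than 1 log2 unit in FBtr0081376. The adjusted p of FBtr0081376 was 0.00145, but 0.152 in the fit of all 12 arrays, and over all alternatives it ran between 6.1e-07 and 0.152.

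The gut changes were also set against those of purified EBs by a test of the difference between both Hey RNAi effects, fitted to all 12 arrays with a weight per tissue, since EB arrays varied more (weights of 2.16 for gut and 0.462 for EB). This test was added after the data had been seen. Of all transcripts, 1738 differed at an adjusted p under 0.05 (11.2%), 1056 of them with the higher change in guts (6.82%) and 682 with the lower (4.41%). Among the transcripts that rose or fell in guts, SuUR and Uba1 had a higher change in guts than in EBs. For SuUR the values were 0.49 in guts and -1.36 in EBs (difference 1.86, adjusted p = 0.00705), and the EB change had an adjusted p of 0.0130 in this weighted fit. The gut change had 0.0420 in the fit of guts alone and 0.326 in the fit of all 12 arrays without tissue weights. As these are other fits, their p-values cannot be set against that of the EB change. For Uba1 they were 0.84 in guts and -0.68 in EBs (difference 1.52, adjusted p = 0.0111), and the EB change did not pass (adjusted p = 0.127). Fatp1 was lower with Hey RNAi in both tissues, by -0.68 in guts and -1.89 in EBs (difference 1.21, adjusted p = 0.0485). For sle (1.03 in guts and 0.48 in EBs) and for Polr3K and Tcs1 (1.21 and 0.84) the differences of 0.55 and 0.38 did not pass (adjusted p = 0.241 and 0.468).

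The authors also deposited a mean per gut group on what the values show to be a log2 scale, made by steps that the sources used here do not detail. These columns come from the same 6 arrays and so are a second summary of them, with no error of their own. Set against the group means of the log2 intensities as deposited, they correlated at r = 0.980 for Hey RNAi guts and 0.977 for control guts across transcripts. The matrix was higher by a median of 0.19 in Hey RNAi guts and 0.21 in control guts, and the gap narrowed with level. It was 0.30 and 0.35 in the dimmest quintile and 0.03 and 0.01 in the brightest. In 2122 of the 15473 transcripts both summaries lay over 1 log2 unit apart in at least 1 group. The transcript of CG45089 and ND-MNLL averaged 11.24 in Hey RNAi guts and 11.02 in control guts here but 6.78 and 6.81 in the authors' means, and that of CG42455 and vnc 12.17 and 11.87 but 9.46 and 9.22.

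The difference of the authors' means correlated with the log2 change at r = 0.932 across transcripts. A change of at least 2-fold was shown by 1364 transcripts in the quantile-normalized matrix and by 1256 in the authors' means, and 1065 of these were shared with the same direction, or 78.1% of the first set and 84.8% of the second. Of the called transcripts, 545 of 547 higher and 540 of 544 lower had the same sign in the authors' means, and 468 (85.6%) and 457 (84.0%) of them were at least 2-fold there. From the dimmest to the brightest quintile of control level, the matrix gave 199, 222, 179, 80 and 19 transcripts at least 2-fold higher and the authors' means 130, 215, 221, 96 and 22. At least 2-fold lower were 16, 106, 195, 141 and 207 in the matrix and 5, 71, 136, 130 and 230 in the authors' means. Both summaries thus had more rises than falls at the dim end and more falls than rises at the bright end, while their counts differed in the dimmest and the middle quintile in particular. The differences of the authors' means were 1.19 for sle, 0.85 for Uba1, 0.56 for SuUR, -0.88 for Fatp1 and 1.20 for Polr3K and Tcs1, all in the direction given above. In 3 named transcripts that had not passed, the sign was the opposite one, at -0.05 against 0.12 for rdx, -0.02 against 0.08 for kis and -0.03 against 0.22 for CG45089 and ND-MNLL.

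**Figure D5:**
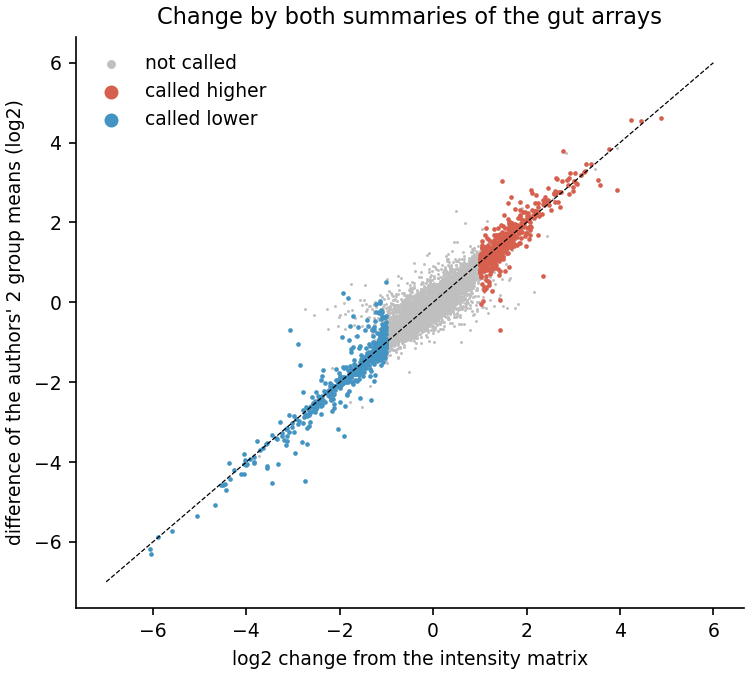
Log2 change of each of the 15473 transcripts from the quantile-normalized matrix (x axis) against the difference of the authors' 2 group means (y axis, log2), both Hey RNAi minus control, with a dashed line where they are equal. The points follow the line at r = 0.932, and 545 of 547 transcripts called higher and 540 of 544 called lower have the same sign in both.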

How the data were processed

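RNA of 3 Hey RNAi and 3 control guts was amplified, Cy3-labelled and measured on 1-colour NimbleGen arrays. Per the study's methods, the authors ran NimbleScan at its defaults to extract the data, then ArrayStar to normalize and test them. RMA stands in the submitters' processing notes. The authors deposited linear intensities, 1 for each transcript on each array, and whether it was taken before or after that normalization is not given in the sources used here. The authors also deposited log2 group means for guts, used here as their values, and folds, p-values and t scores of their own test, not used here. Samples were grouped by their titles.

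Here the intensities were log2 transformed without a pseudocount, quantile normalized over the 6 gut arrays and fitted in R 4.3.3 by lmFit and eBayes of limma 3.58.1, with 4 residual and 2.64 prior degrees of freedom. No transcript was filtered out. p-values were adjusted by Benjamini-Hochberg over all 15473 transcripts, and a call needed an adjusted p under 0.05 and at least 2-fold, the limits of the study's methods. Only the main fit was tested on simulated data, with errors drawn independently for each array. The alternatives and the test of gut against EB changes were not. With 3 arrays a group, the number of arrays limits the precision, and no background or probe values were analysed here. Alternatives changed the normalization, the arrays in the fit, a filter on dim transcripts, the prior, array weights, the threshold, the replicate number as a block and each array left out.

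The comparison, lists and level classes were chosen with earlier results of these data known. Identifiers were matched to gene symbols through synonyms of a RefSeq gene table, 9 single genes by the whole synonym and 8 by part of it. The rule for named transcripts took every transcript paired with a gene if up to 40 were paired. It was read as the 17 with 1 gene, and those with several genes were added as a group, in which the ones that passed, the largest values in the other direction and those with the widest gaps between summaries are named. Of transcripts without a gene, the 2 largest called rises and falls above the median transcript on all 6 arrays were taken. The reading of this rule, the match by parts of synonyms, the closest-pair count and the test of gut against EB changes were chosen after the data had been seen. Reference coordinates and sequences were not used, since the files name no genome build.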

Additional observations from a re-analysis of the deposited data

Results flagged for a closer look

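In 8 of the 44 transcripts paired with a gene the effect of Hey RNAi differed between guts and purified EBs by the test of the difference itself (limma, all 12 arrays, adjusted p under 0.05, against 11.2% of all transcripts). Differences are the change in guts minus the change in EBs, in log2 units. They were 1.86 for SuUR, 1.52 for Uba1 and 1.21 for Fatp1, with the changes given above. Wdr24 changed by -0.21 in guts and -1.26 in EBs (difference 1.05, adjusted p = 0.0345). The transcript of Rad1 and Sws1 changed by 0.51 in guts and -0.73 in EBs (difference 1.24, 0.0477), and that of CG42488 and CG5116 by 0.50 and -0.71 (difference 1.21, 0.0272). In the other direction, the transcript of CG32573 and CG42512 changed by -0.56 in guts and 2.13 in EBs (difference -2.69, 0.00750), and that of CG30100 and CG42372 by 0.06 in guts and 0.91 in EBs (difference -0.85, 0.0467). Each tissue has 3 Hey RNAi and 3 control arrays, and tissue, driver, purification and possibly age cannot be told apart in this difference.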

How the results depend on the processing

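Against 1091 calls (547 higher, 544 lower), a fit of all 12 arrays gave 480 (259 and 221), limma's treat for changes over 1.5-fold 414 (164 and 250), an adjusted p under 0.01 gave 664 (294 higher), an adjusted p at any fold 3058 (1574 and 1484), and closest pairs 2-fold apart 444 (179 and 265). With the deposited values unscaled, 355 were higher. Leaving out 1 array gave 883 to 1313 calls, 400 to 678 higher and 468 to 635 lower. With the replicate number as a block there were 1123 calls, or 1115 on unscaled values. On unscaled values the block gave adjusted p of 0.0135 for sle, 0.0188 for Uba1, 0.0397 for Fatp1 and 0.0696 for SuUR. On quantile-normalized values, SuUR (0.0775) and 4 transcripts with several genes (0.0542 to 0.0710) were over 0.05 with the block. Same-numbered arrays nearly shared their mean deposited intensity (3209 and 3200, 2345 and 2337, 2879 and 2875 units in Hey RNAi and control guts). Their deviations from the group means correlated at r of 0.17, 0.01 and 0.26 after quantile normalization, which had removed any shared scale. For arrays of different numbers r ran from -0.26 to 0.11. These r values cannot settle whether the numbers pair the arrays, and the sources used here do not say what a number shares. No call changed direction in the 20 settings of the call count. Settings that altered only the threshold, the prior or the filter on dim transcripts kept the same changes and could not reverse any. The block likewise left the changes as they were without it. In the dimmest quintile 2.42% were higher with the mean of 6 arrays as the level, 3.20% with control gut 1, 2.97% after median centring and 2.29% unscaled, and 0.420, 0.356 and 0.679% were lower in the first 3 of these. The median change of that quintile was -0.16 after median centring. In the brightest quintile 1.32% were higher and 3.36% lower with the mean of 6 arrays, and 0.323 and 5.33% unscaled. Unscaled, the median SD was 0.354 in Hey RNAi and 0.372 in control guts. Changes that turned sign were all of transcripts that had not passed. After median centring these were fend (-0.15), alpha-Spec (-0.0077), CG17325 and CG42305 (-0.024) and CG10570 and CG42502 (-0.23), unscaled with or without the block fend (-0.092) and CG10570 and CG42502 (-0.17), and after cyclic loess CG10570 and CG42502 again (-0.0028). With 1 array left out, the ranges that crossed 0 were -0.20 to 0.51 for fend, -0.035 to 0.19 for alpha-Spec, -0.16 to 0.32 for rdx, -0.22 to 0.051 for His4r, -0.014 to 0.34 for CG17325 and CG42305, -0.19 to 0.28 for CG10570 and CG42502, and -0.0019 to 0.10 for CG30100 and CG42372. Causes were not tested.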
